A study of Homo sapiens with 6 samples.

Results

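GNAS, GNAS-AS1 and GNAL were described here as they stand in a merged transcript assembly of human EndoC-βH1 cells, an established line of pancreatic beta cells. Members were the transcript models whose gene name in that assembly was GNAS, GNAS-AS1 or GNAL. The rule found 12 models of 55083, of which 7 belonged to GNAS, 1 to GNAS-AS1 and 4 to GNAL. All cells carried a lentiviral construct with a short hairpin RNA aimed at the promoter of the insulin gene INS, under doxycycline control. In the INS-KD group (3 libraries) the hairpin was switched on by doxycycline for 7 days, at 1 mg/mL as the labels give it (a high dose for such a construct, which was not checked), and the Negative Control group (3 libraries) carried the construct without doxycycline, so that the hairpin and the agent cannot be told apart. The assembly pools all 6 libraries into exon positions and tags, and 0 of its 555595 exon lines carry a number in the score column. It therefore gives no level of any gene in either group, and a reference model listed in it is no measure of expression. The cell line's identity could not be checked against marker levels for the same reason, and sequencing depth is unknown.

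GNAS encodes Gsα, the alpha subunit of the heterotrimeric G protein that couples hormone receptors to adenylyl cyclase and raises cyclic AMP. In beta cells, receptors for incretin hormones act through Gsα and cyclic AMP to increase insulin release. The locus is imprinted and makes several products from separate first exons joined to common downstream exons. NESP55, a secretory granule protein, is made from the maternal allele. XLαs, a long form of the alpha subunit, the A/B transcript, usually regarded as non-coding, and the antisense RNA GNAS-AS1 come from the paternal allele. Gsα itself is made from both alleles in most tissues. GNAL encodes Gαolf, the closest relative of Gsα, which couples odorant receptors in the olfactory epithelium and dopamine and adenosine receptors in the striatum to adenylyl cyclase.

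The GNAS models differed by their first exons, and the joins to the common exon show this directly. Each line gives the last 15 bases of a first exon in lower case, followed by the first 15 bases of the next exon in capitals. Positions are hg19, the build of the deposited file, and bases were read from GRCh37.
NESP55 (chr20:57415927-57415941 to chr20:57470667-57470681): ttttcatggattcagGTGCTGGAGAATCTG
XLαs (chr20:57430374-57430388 to chr20:57470667-57470681): gcctgctgcttctagGTGCTGGAGAATCTG
A/B (chr20:57464394-57464408 to chr20:57470667-57470681): gcacctcactcacatGTGCTGGAGAATCTG
Gsα (chr20:57466906-57466920 to chr20:57470667-57470681): gcctgctgctgctggGTGCTGGAGAATCTG
GNAL, first start (chr18:11689924-11689938 to chr18:11752852-11752866): ggctcctgctgctcgGGGCTGGTGAGTCTG
The capitals were identical in the 4 GNAS joins. Set against the 15 bases that end the Gsα first exon, the XLαs exon matched at 13 positions and the first GNAL exon at 12. The other GNAL first exons matched at 3 (NM_001261443 and NM_001142339) and 4 (NM_001261444), but they join other exons. NM_001261443 and NM_001142339 join a 247-base exon, which in turn joins the exon at chr18:11752852 shown above. The end of that 247-base exon was not compared. NM_001261444 joins a later exon, at chr18:11862394. The NESP55 and A/B exons each matched at 4.

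GNAS spanned chr20:57414795-57486250 on the plus strand, which is 71456 bases. It had 4 start groups, meaning sets of models that share a transcription start tag. Of the 25211 gene names in the file, 535 (2.12%) had at least that many, and 317 did on chromosomes 1 to 22, X and Y alone. NESP55 (NM_016592) started at 57414795 with a first exon of 1147 bases. XLαs (NM_001077490, tagged with NM_080425 as its nearest reference) started 13241 bases further on, at 57428036, with a first exon of 2353 bases. The A/B model (NR_003259) started 36144 bases after that, at 57464180, with a first exon of 229 bases. The 4 Gsα models shared a start at 57466426, which lay 2246 bases beyond A/B, and a first exon of 495 bases. The starts thus lay far apart, apart from those of A/B and Gsα, and the 2 longest first exons were those furthest upstream. GNAS-AS1 had 1 start group, the fewest possible (100.0% of gene names have at least 1), and GNAL had 3, a number reached or passed by 1250 gene names (4.96%). Against gene names with as many reference models, these counts stood out less. Among the 236 with 7 reference models, as GNAS has, 58 (24.6%) had 4 or more start groups. Among the 1236 with 4 reference models, as GNAL has, 247 (20.0%) had 3 or more. These shares and the 4.96% count gene names over all sequences, alternative haplotypes included. They were not recounted on chromosomes 1 to 22, X and Y alone, where the count for GNAS fell to 317.

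**Figure D1:**
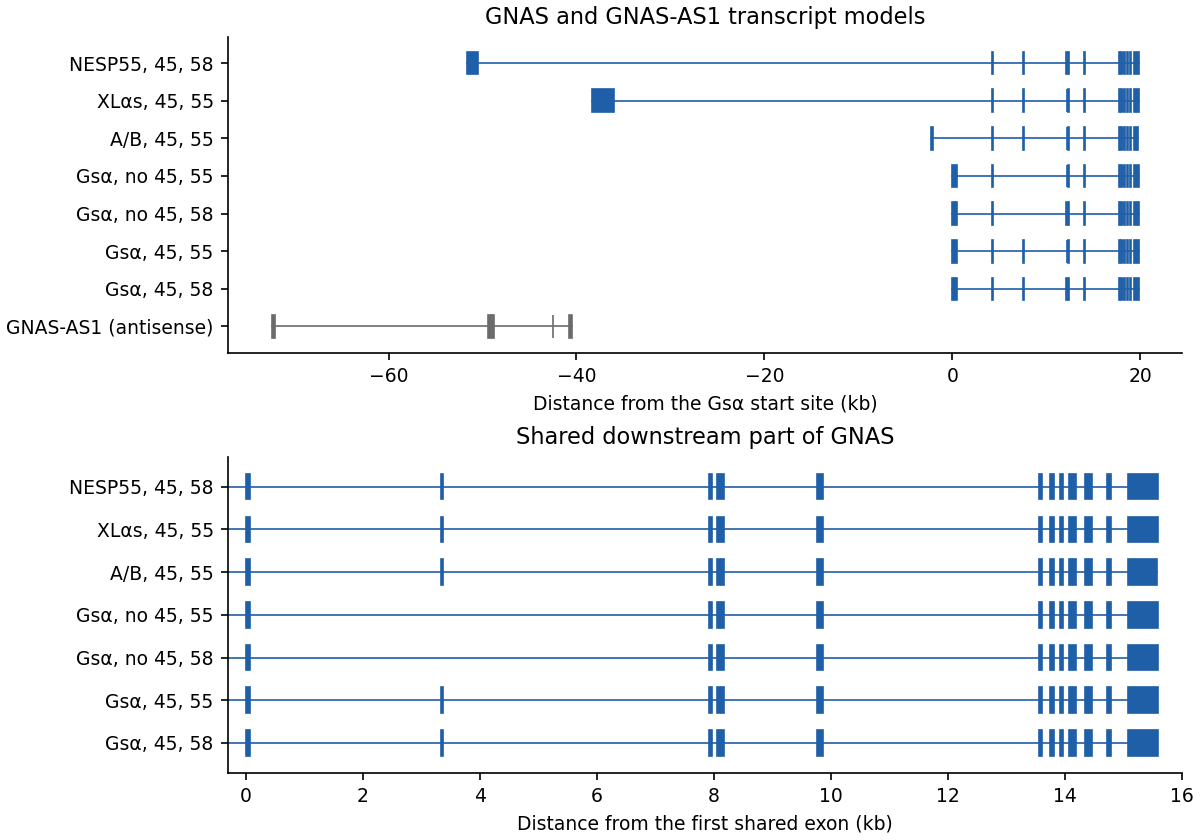
Exons (boxes) and introns (lines) of the 7 GNAS models and the GNAS-AS1 model by distance in kb, over the whole locus above and over its shared downstream part below. Each GNAS model begins at 1 of 4 starts and holds the same 10 downstream exons, and no GNAS-AS1 exon overlaps a GNAS exon. The 45-base exon and the 58-base or 55-base form of the next exon vary between models.

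All 7 GNAS models spliced from their first exon into the same 73-base exon at chr20:57470667-57470739. From the start site to that exon the distance was 55872 bases for NESP55, 42631 for XLαs, 6487 for A/B and 4241 for Gsα. Counting that exon, 10 exons were held by all 7 models and lay within 15584 bases. The last of them is 513 bases long, and the A/B model ends 3 bases earlier, at 57486247. What varied after the first exon was 1 optional exon of 45 bases and 1 acceptor with positions 3 bases apart. The optional exon (chr20:57473996-57474040) is shown because it makes the difference between the long and short forms of Gsα. It stands in capitals with 10 intron bases on each side.
45-base exon (chr20:57473986-57474050): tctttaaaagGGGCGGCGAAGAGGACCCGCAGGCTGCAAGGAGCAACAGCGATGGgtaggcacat
The acceptor that follows is shown with the 3 bases in capitals that only the longer exon form keeps.
Tandem acceptor (chr20:57478558-57478600): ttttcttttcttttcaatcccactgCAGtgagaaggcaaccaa
The longer form of this exon has 58 bases and starts at 57478583, and the shorter has 55 bases and starts at 57478586. The 45-base exon was in 5 of the 7 models. The 58-base form was in 3 models and the 55-base form in 4.

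The intron before the 58-base form ends in TG and the one before the 55-base form ends in AG. GNAS had 18 distinct introns, of which 16 had the usual GT-AG ends and 2 had GT-TG ends, both leading to the 58-base form. Among 219168 distinct reference introns whose ends could be read, 42 (0.0192%) were GT-TG and 98.6% were GT-AG. The 42 lay in 36 gene names. For 5 of the 42, the 2 of GNAS included, the file also held a reference intron with the same donor that was 3 bases longer. All 15 GNAL introns and all 4 GNAS-AS1 introns were GT-AG.

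The 2 choices downstream can be combined with each of the 4 first exons, which gives 16 possible GNAS transcripts. The file held 7 of them. The Gsα first exon had all 4 combinations. NM_001077489 lacks the 45-base exon and has the 55-base form, and NM_080426 lacks it and has the 58-base form. NM_001077488 has the 45-base exon with the 58-base form, and NM_000516 has it with the 55-base form. NESP55, XLαs and A/B had 1 combination each. All 3 kept the 45-base exon, which NESP55 joined to the 58-base form and XLαs and A/B to the 55-base form. The other 9 combinations, 3 for each of these first exons, were absent from the file and are all present as GENCODE release 44 transcripts. GNAL had 4 possible walks through its exons and all 4 were in the file, as was the single walk of GNAS-AS1.

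None of the 12 member models was a joined model. Joined models are those that the assembly tags as a variant of a reference transcript (class code j), not as a match to it. Whether all their splice sites are known ones was not checked. A joined model was found for 2677 of 21516 multi-exon gene names (12.4%). The share was higher for gene names with as many reference models as the members. It was 143 of 236 gene names with 7 reference models (60.6%) and 554 of 1236 with 4 (44.8%). The next shares have another base, multi-exon gene names counted once for each locus on chromosomes 1 to 22, X and Y. There 2370 of 3711 whose reference exons allow further combinations had a joined model (63.9%), against 308 of 18033 without any (1.71%). Of the 74 with 9 unused combinations, 68 (91.9%) had a joined model, and GNAS was among the 6 that did not. GNAL had no unused combination. Among the 446 with 4 reference models and none unused, 36 (8.07%) had a joined model. Whether reads in these libraries crossed the unused combinations of GNAS was not tested, since the assembly gives no read counts.

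The reading frames followed the first exons. On the genome sequence, the longest frame of the Gsα models opened at an ATG at 57466782 in the first exon. It was 379 amino acids long in NM_001077489, 380 in NM_080426, 394 in NM_000516 and 395 in NM_001077488. The 45-base exon and the 3 optional bases are multiples of a codon, so all 4 frames read the same codons downstream. The XLαs frame opened at 57428321 and was 1037 amino acids long. The A/B model had no coding tag in the file. Its longest frame began only in the second exon, at 57470705, and was 335 amino acids long. GENCODE lists the same intron chain as protein coding, with 335 codons. The longest frames of all 7 models ended at the same stop at 57485884, and their last 308 residues were identical. The coding tags put 6 of the 7 models in 6 coding groups.

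The NESP55 exon carried a frame of its own. The frame of 245 amino acids ran from 57415162 to 57415899, wholly inside the first exon. That stop lay 944 bases before the last splice junction, so that the common exons are untranslated in this model when this frame is read. The coding part of the first exon in GENCODE has the same 245 codons. A second, longer frame of 363 amino acids began where the first ended, and entered the common exons. The overlapping stop and start are in capitals.
Stop of the NESP55 frame and next ATG (chr20:57415885-57415913): atccggcgtcacTAATGgaggacgccgtc
The final A of the stop codon is the first base of the ATG, so the frames share 1 base. The XLαs exon also holds a second frame, which is known to encode a protein called ALEX. It ran from 57428508 to 57430388 and was 626 amino acids long. Its stop ended on the last base of the first exon. It lay wholly within the XLαs frame but with other codon boundaries, so that 1881 bases are read in both.

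GNAS-AS1 lay on the minus strand at chr20:57393973-57425958, which is 31986 bases. Its 1 model (NR_002785) had 5 exons and 1157 spliced bases, no coding group, and a longest frame of 97 amino acids. Its span overlapped that of GNAS by 11164 bases, yet its exons overlapped GNAS exons by 0 bases. The first 4 exons, of 374, 39, 113 and 293 bases, lay in the first intron of the NESP55 model, and the fifth, of 338 bases, lay beyond the GNAS span. The NESP55 first exon lay in turn inside the 22681-base last intron of GNAS-AS1. The start of GNAS-AS1 was 2078 bases below that of XLαs, pointing away from it, and 40468 bases from that of Gsα. The microRNA genes MIR298 and MIR296 lay 604 and 1223 bases beyond the 3′ end of GNAS-AS1 on the same strand. The nearest protein-coding genes were NPEPL1, 123894 bases below GNAS, and NELFCD, 70012 bases above it.

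The start regions were set out by their CpG dinucleotides, since methylation at CpG marks the parental alleles of this locus. The 80 bases before 6 of the member starts are printed on the strand of the gene, with CpG in capitals.
NESP55 (chr20:57414715-57414794, plus strand): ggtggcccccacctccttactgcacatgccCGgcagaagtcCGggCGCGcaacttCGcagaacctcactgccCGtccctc
XLαs (chr20:57427956-57428035, plus strand): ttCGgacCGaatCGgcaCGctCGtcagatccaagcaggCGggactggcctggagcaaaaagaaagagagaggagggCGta
A/B (chr20:57464100-57464179, plus strand): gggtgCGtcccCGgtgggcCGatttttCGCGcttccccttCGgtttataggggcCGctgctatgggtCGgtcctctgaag
GNAS-AS1 (chr20:57425959-57426038, minus strand): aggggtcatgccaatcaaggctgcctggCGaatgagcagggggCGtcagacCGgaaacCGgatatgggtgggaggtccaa
GNAL, first start (chr18:11688934-11689013, plus strand): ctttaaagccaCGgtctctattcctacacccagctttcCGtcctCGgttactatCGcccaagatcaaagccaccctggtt
GNAL, last start (chr18:11857357-11857436, plus strand): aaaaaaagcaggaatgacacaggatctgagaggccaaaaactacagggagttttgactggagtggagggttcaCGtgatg
The letters alone set the A/B start apart from the last GNAL start, which has 1 CpG in this stretch.

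Over a window of 300 bases, from 250 before to 50 after the start, Gsα had 46 CpG and 85.3% G or C. Among 30960 start windows of the file, 3.44% had as many CpG or more. A/B had 36 CpG (13.2% of windows with as many), NESP55 21 (41.1%), XLαs 18 (46.9%) and GNAS-AS1 14 (54.2%). The 3 GNAL starts had 9 CpG (63.4%), 16 (50.5%) and 2 (91.8%) in the order of their positions. Gsα and A/B were thus the most CpG-rich of the 8 member starts. NESP55, XLαs, GNAS-AS1 and the middle GNAL start were near the median of all windows, which was 16. The ratio of CpG found to CpG expected from base composition was 0.873 for Gsα and 0.893 for A/B, so the order of these 2 starts by CpG count was not kept by the ratio. It was 0.135 for the last GNAL start. The file gives no methylation, and these are properties of the genome sequence.

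**Figure D2:**
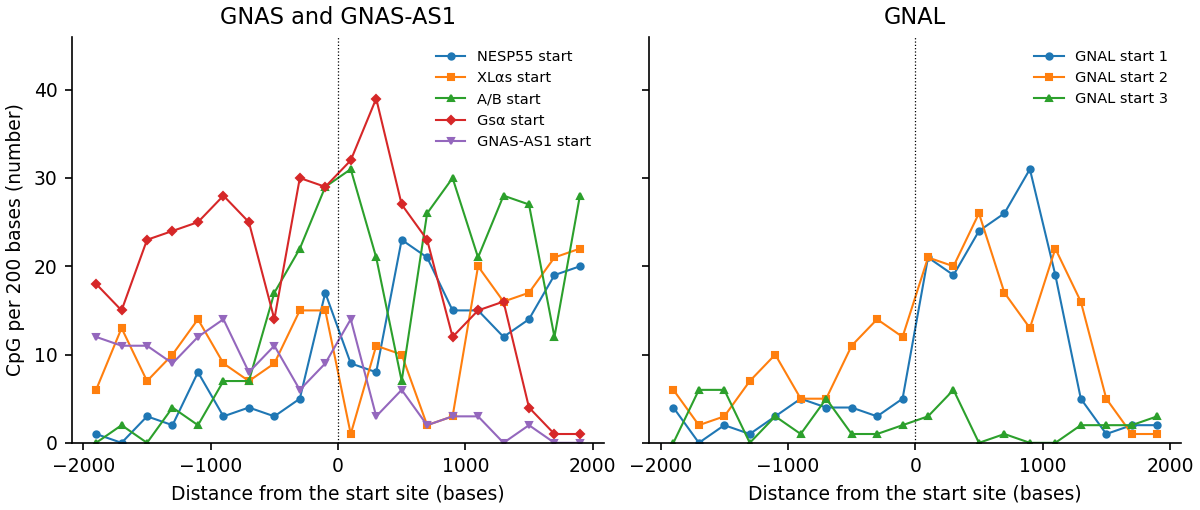
Number of CpG per 200 bases (vertical axis) by distance from the start site in bases (horizontal axis, in the direction of transcription), for the GNAS and GNAS-AS1 starts on the left and the GNAL starts on the right. Gsα and A/B peak around their starts, the first and middle GNAL starts rise after theirs, and the last GNAL start stays low.

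In the first GNAL start the CpG lay after the start site rather than before it. The first 300 transcribed bases held 35 CpG, with a ratio of 1.17. The middle GNAL start held 32 CpG there and the last 7. Gsα held 52 and A/B 43, while NESP55 held 11, XLαs 7 and GNAS-AS1 17. The window used therefore decides how CpG-rich the first and middle GNAL starts appear, while the last one is low in both. NESP55 and XLαs held fewer CpG in these bases than in the window around the start. No share over all starts was counted for the first 300 transcribed bases. NESP55 and XLαs were richer further into the transcript. NESP55 held 23 CpG in the 200 bases centred 500 bases after its start, and XLαs 22 in those centred 1900 bases after. Gsα held 39 in those centred 300 bases after its start. In the plot of CpG by distance, which reaches 2000 bases to each side, the A/B and Gsα lines are in part the same bases, since the starts are 2246 bases apart.

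The same first exon of GNAL holds a repeated word that was noticed only after the sequence was read. The word atttacggta occurred 5 times, starting at bases 89, 123, 157, 182 and 215 after the start site, all before the ATG. Its copies were 34, 34, 25 and 33 bases apart. In the first 300 transcribed bases of the 30960 start sites, 72 (0.233%) held any word of 10 bases with all 4 letters at least 5 times. Only 3 start sites (0.00969%) held this word on either strand, and 1 (0.00323%), that of GNAL, held it 5 times. The word was picked because it was the most repeated at the member starts, so its own counts describe it and are no test. A match is a description of the letters and not of a binding site.

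GNAL spanned chr18:11689014-11885683 on the plus strand, which is 196670 bases. Its first start (NM_182978) had a first exon of 925 bases and a frame of 458 amino acids from an ATG at 11689563. The middle start, 62457 bases further on at 11751471, had 2 models whose first exons were 37 bases (NM_001261443) and 235 bases (NM_001142339). Both continued into an exon of 247 bases that holds the ATG at 11752433, and both had a frame of 381 amino acids and the same coding tag. The last start (NM_001261444) was 105966 bases after the middle one, at 11857437. Its longest frame was 174 amino acids long and opened only in the fourth exon, at 11867168. All 4 frames ended at the stop at 11881134 in a last exon of 4696 bases. The 4 models had 7 exons in common, within 23290 bases. GNAL thus had the same plan as GNAS, with separate first exons joined to a common end, but its last start lay inside the run of exons that the 2 genes share.

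**Figure D3:**
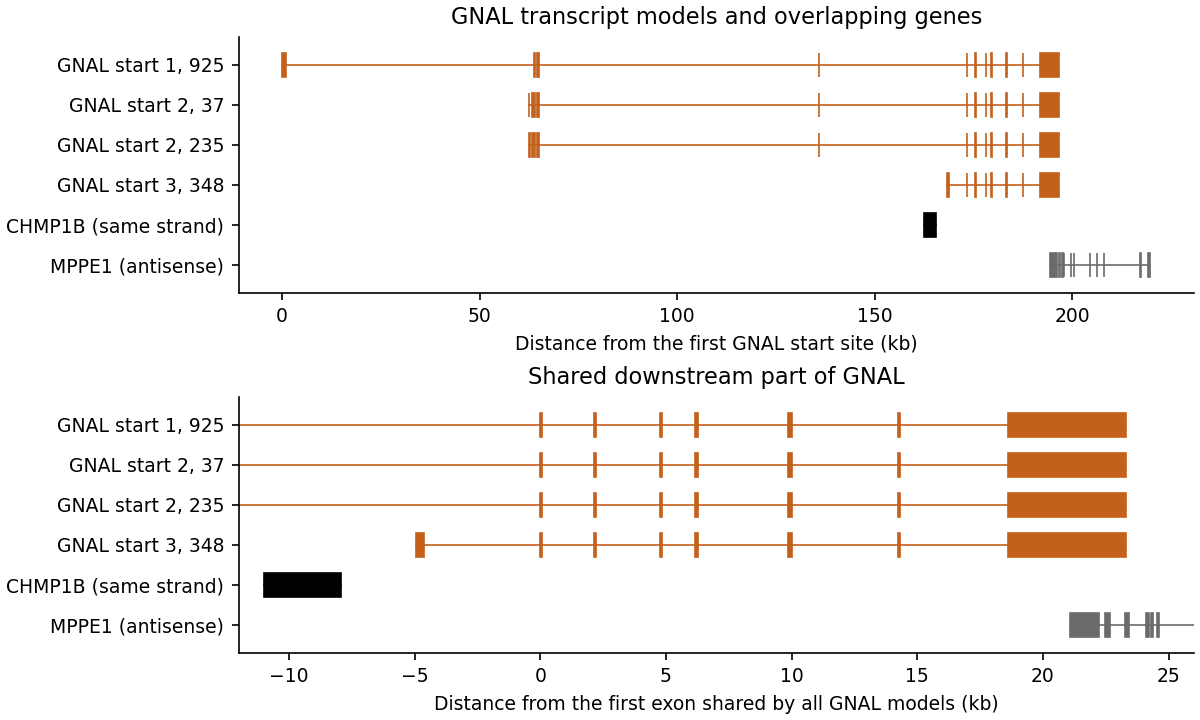
Exons (boxes) and introns (lines) of the 4 GNAL models, named by start and first exon length in bases, and of CHMP1B and the MPPE1 reference model with the most exons, by distance in kb. The last GNAL start leaves out the upstream exons, CHMP1B lies in a GNAL intron, and MPPE1 overlaps the last exon.

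No antisense gene like GNAS-AS1 covered the GNAL starts in the file, but other genes overlapped its downstream part. CHMP1B, which encodes a subunit of the membrane-remodelling ESCRT-III complex, is a single exon of 3060 bases on the same strand in the 37379-base GNAL intron. MPPE1, a phosphoesterase gene on the opposite strand, had 7 models, and all 7 overlapped the last GNAL exon, by 1329 bases between exons. This differs from GNAS and GNAS-AS1, whose exons shared 0 bases. Of the MPPE1 models, 2 were joined. The counting of reads from GNAL and MPPE1 in this stretch would be uncertain without strand. The nearest genes that did not overlap were MIR7153, 34073 bases from GNAL, SLC35G4P at 78402 bases and IMPA2 at 95743 bases.

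GNAS and GNAL shared the lengths of 10 consecutive internal exons: 73, 55, 120, 98, 55, 74, 59, 121, 131 and 68 bases. In GNAS this run is that of NM_001077489, the form with neither the 45-base exon nor the 3 optional bases. No other gene name in the file held the run, or any stretch of 3 or more of its lengths in this order. The codon phase at the start of the exon was equal in all 10 pairs. The exon with the lowest share of identical bases is printed to show how far the genes differ within an equal length, with the bases that differ in capitals.
Exon 2 of the run, GNAS (chr20:57478586-57478640): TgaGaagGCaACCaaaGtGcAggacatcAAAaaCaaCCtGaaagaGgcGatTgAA
Exon 2 of the run, GNAL (chr18:11753627-11753681): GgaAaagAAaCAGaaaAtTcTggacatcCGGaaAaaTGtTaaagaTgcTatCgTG
Exon 2 of the run was 60.0% identical and lies just after the place where the 45-base exon enters GNAS.

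Over the 10 exons 616 of 854 bases were identical (72.1%). The 238 differences fell mostly on the third base of the codon, with 150 there (63.0%), 52 on the first and 36 on the second. Exon 1 of the run was 82.2% identical, exon 7 81.4%, exon 6 78.4%, exon 4 76.5%, exon 8 75.2% and exon 9 74.8%. Exons 10, 5 and 3 were lower, at 64.7%, 63.6% and 61.7%. At the protein level, the 381 residues of GNAL NM_001142339 and the 379 of GNAS NM_001077489 were aligned in 381 columns, with 304 identical residues (79.8%) and 2 gap columns. This share depends on the forms compared. With the same GNAL form it was 77.0% for the Gsα form of 394 residues and 28.9% for XLαs. With the GNAL form of 458 residues, the 379-residue Gsα form had 62.7%. The first coding exons were close in size too, with 145 coding bases in this GNAL form and 139 in Gsα. The long first exons were not, with 376 coding bases in the first GNAL start and 2068 in XLαs.

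**Figure D4:**
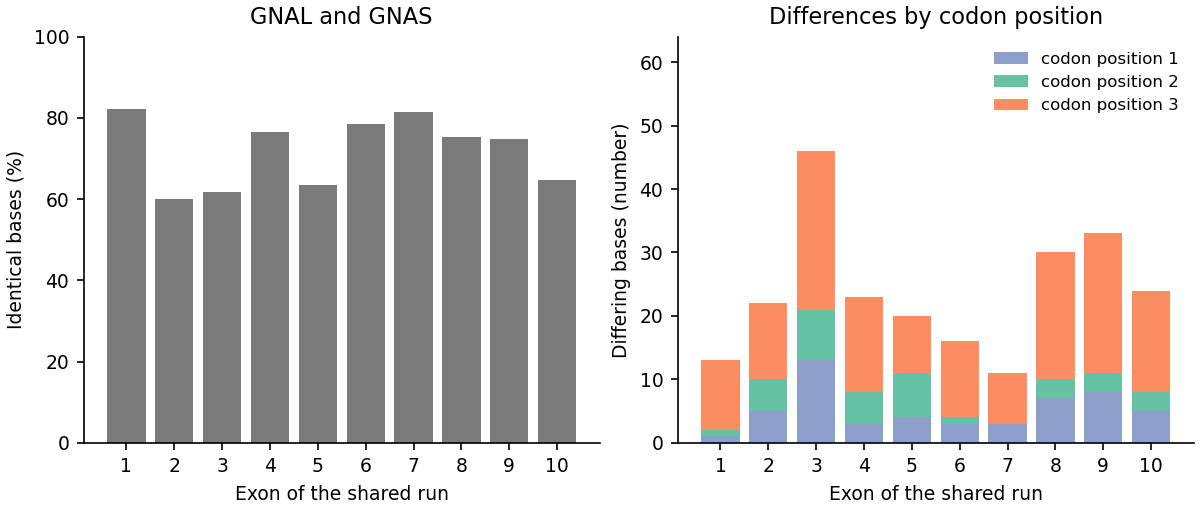
Percent of identical bases between GNAL and GNAS in each of the 10 exons of equal length (left), and the number of differing bases in each exon, stacked by codon position (right). Identity lies between 60.0% and 82.2%, and 150 of the 238 differences are at the third codon position.

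The introns between these exons did not keep their lengths. GNAL had the longer intron in 9 of 10 pairs. The sum was 127282 bases in GNAL and 14217 bases in GNAS, or 8.95-fold, and the median ratio of the pairs was 15.5. The largest ratio was that of the intron between the 120-base and the 98-base exons, with 70972 bases in GNAL against 1591 in GNAS (44.6-fold). The next intron, which holds CHMP1B in GNAL, had 37379 bases in GNAL against 3681 in GNAS (10.2-fold). The first pair was the exception, with 702 bases in GNAL against 7846 in GNAS. That GNAS intron is the one that the 45-base exon divides when it is used.

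**Figure D5:**
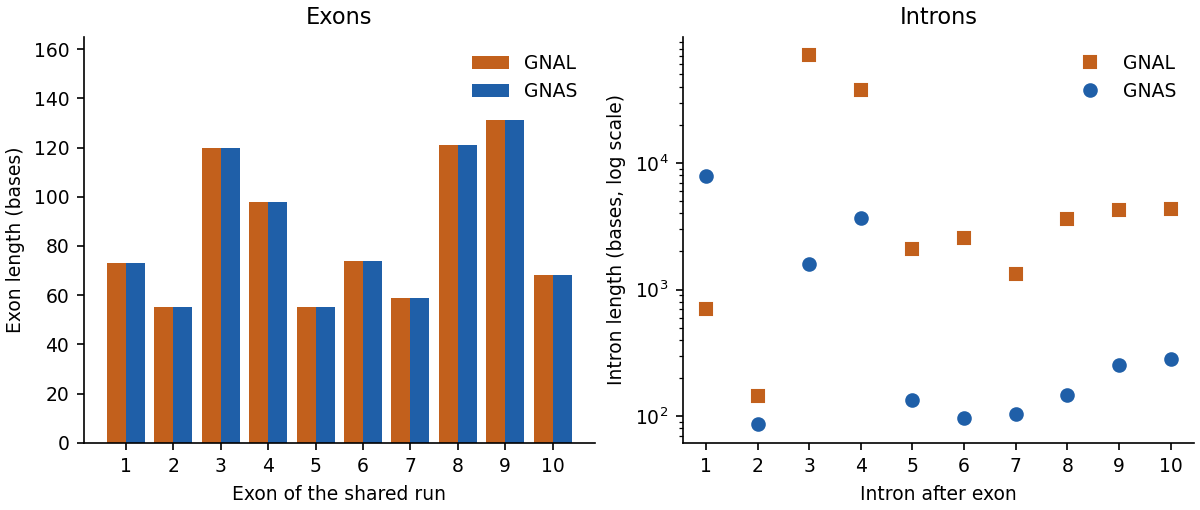
Lengths in bases of the 10 paired exons and of the introns that follow them in GNAL and GNAS, in order along the genes, on a log axis for the introns. Exon lengths coincide in every pair, while the GNAL intron is longer in 9 of 10 pairs.

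The other alpha subunits were set beside these 2 genes. Of the 16 alpha subunit genes, all in the file, none had a joined model. Their median number of start groups was 1, as it was over all gene names. GNAI2, which encodes an alpha subunit that inhibits adenylyl cyclase, came nearest to GNAS, with 4 start groups, 6 models and 6 coding groups. GNA12, of another class of alpha subunits, came nearest to GNAL, with 3 start groups, 4 models and 4 coding groups. Their internal exons were of other sizes. GNAI1, GNAT2 and GNAT3 had internal exons of 43, 142, 158, 129, 130 and 154 bases, and these lengths recur in GNAI3 and GNAT1. GNAQ, GNA11, GNA14 and GNA15, which activate phospholipase C, had 185, 155, 129, 130 and 154 bases. The last 3 of these lengths are common to both of those groups and absent from GNAS and GNAL.

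Among the partners of the alpha subunit, none of the 17 beta and gamma subunit genes had a joined model or more than 2 start groups. GNB5, GNG4 and GNGT2 had 2. In a list of the cyclic AMP pathway, which runs from receptors such as GLP1R to adenylyl cyclases, protein kinase A and phosphodiesterases, 7 of 29 genes had a joined model. PDE4D, a phosphodiesterase that degrades cyclic AMP, had 8 start groups, against 4 for GNAS. PRKACB, a catalytic subunit of protein kinase A, had 5 start groups and 1 joined model. PRKAR1B, a regulatory subunit, had 5 start groups. The adenylyl cyclase genes ADCY1, ADCY6 and ADCY7 each had 1 joined model. Among 31 other imprinted genes, 7 had a joined model and 1, MEST, had as many start groups as GNAS, together with 2 joined models. GRB10, an adaptor of the insulin receptor, had 3 start groups and 2 joined models, and BLCAP had 3 start groups. These lists were chosen with results of the file known, and their counts are descriptions beside the 12.4% of all multi-exon gene names.

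At the 3′ end, all member models held the polyadenylation signal AATAAA in their last 50 bases, as did 54.5% of the 27412 distinct 3′ ends in the file. It began 29 bases before the end of the longer GNAS end, 26 before that of A/B, 27 before that of GNAL and 39 before that of GNAS-AS1. After the stop codon the Gsα models had 366 bases and the GNAL models 4549. Most of the length of GNAL transcripts was therefore untranslated: NM_001142339 had 6032 spliced bases, of which its frame took 1146 with the stop. For Gsα NM_000516 these were 1907 and 1185 bases.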

How the data were processed

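RNA-seq libraries of INS-KD and Negative Control cells (3 each) were made per the labels' protocols. The submitters' processing notes name TopHat2, Cufflinks and hg19, with no versions. The deposited file is 1 merged assembly of exon positions made by the authors. It has no value per library, so depth is unknown and the planned expression tests, which assumed such values, were not possible. Members and gene lists were chosen with earlier results of these data known.

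Models were rebuilt with Python 3.11.15, numpy 2.4.6 and scipy 1.17.1. Start and coding groups are the file's own tags. Sequence was read from GRCh37, frames run from ATG to stop on the spliced sequence, proteins were aligned with Biopython 1.88 (gap opening 11, extension 1), and chains were compared with GENCODE release 44. A walk is a path of exons from a first to a last exon along reference introns. Walk and frame counting was tested on simulated data. From each list the 3 genes with most start groups and those with joined models (at most 6) were eligible to be named. Alternatives changed the start, coding group, overlap and alignment definitions. Some sequences are not reported here.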

Additional observations from a re-analysis of the deposited data

How the results depend on the processing

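No paired analysis was possible because the deposited assembly pools the 6 libraries without a value for any of them, and the expression alternatives (replicate block, pseudocount, filter, leaving out a library) were not run for that reason. Of 39 alternatives over 16 results, 36 stayed within 1.5 times the reported value. Part of the 36 could not have moved. All 12 member models are reference models of at least 3 exons on chromosomes 18 and 20. Limits to such models, or to chromosomes 1 to 22, X and Y, could therefore change no count or overlap of the members. The 3 alternatives outside that range were these. Counting whole spans in place of exons, GNAS-AS1 and GNAS overlapped by 11164 bases, against 0 by exons. On chromosomes 1 to 22, X and Y, 317 gene names had at least as many start groups as GNAS, against 535 over all sequences including alternative haplotypes. Counting longest reading frames in place of coding tags gave GNAS-AS1 1 coding group, against 0, and GNAS 7, against 6. GNAL had 4 first exons by splice donor, against 3 start groups. Protein identity was 80.2% over the shorter protein and 79.8% by local alignment.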

Other observations

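The gene on the far side of GNAS-AS1 differed from the members in its models. STX16-NPEPL1, a readthrough gene of the 2 neighbours of the locus, had 7 models, of which 6 were joined, and 3 start groups. Of the 13 listed neighbours of GNAS in the file, it was the only 1 with a joined model. Over all multi-exon gene names the share was 12.4%. STX16, which encodes a syntaxin of the Golgi and whose deletions are known to alter methylation of GNAS in pseudohypoparathyroidism, had 8 models, and NPEPL1 had 3.

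The number of known transcripts depends on the annotation. GENCODE release 44 has 77 GNAS transcripts with 75 different intron chains, 7 of GNAS-AS1 and 10 of GNAL, and the chains of all 12 member models are among them. In the RefSeq annotation of GRCh38.p14, GNAS has 20 accessions, which include 6 of the 7 in the file but not that of the A/B model, NR_003259. In the RefSeq promoter table of that build, the 5 copies of the GNAL word lie before the listed start site, whereas in the deposited file they lie after it, in the first exon.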
